A study of Mus musculus with 16 samples.

Results

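MiR-223 is a microRNA (miRNA), a short RNA that guides silencing complexes to messenger RNAs. It was followed here over 4 stages of mouse mast cell culture. It was taken as every probe that carries the name mmu-miR-223 on the arrays, which gave 1 of 577 miRNAs and 2 of 1712 miRNA probes. MiR-223 is best known from granulocytes and monocytes, where it is abundant and restrains the growth and activity of the granulocyte line. Its gene lies on the X chromosome and is activated by the myeloid factors PU.1 and C/EBP. Mast cells also arise from bone marrow myeloid progenitors, and the receptor c-kit (CD117), which binds stem cell factor (SCF), stays on their surface as they mature.

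All cells came from bone marrow of Balb/c mice, grown with 5 ng/ml of IL-3 and 20 ng/ml of SCF, and each group has 4 arrays. MMC are mast cells of a mucosal type, made from bone marrow-derived mast cells (BMMC) by adding IL-9 and TGF-beta for 5 days. IgE-crosslinked BMMC were loaded with anti-DNP IgE and given DNP antigen for 2 hours, which activates mast cells through their IgE receptor. BMMC were grown for 4 weeks and are called immature in the labels. Progenitors were c-kit-positive cells taken by magnetic separation on day 6 and are described as putative committed immature progenitors. The progenitors thus differ from the other groups in age of culture and in having been separated, and no group was described as kept the extra 5 days without IL-9 and TGF-beta. Culture purity was not given in the sources used here. The arrays measured no messenger RNA, so genes that mark mast cells, granulocytes or monocytes could not be read. The study states 4 biological replicates per group, without saying whether these were animals or cultures, so p-values reflect only how far these samples spread, and that spread may be technical.

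In the array's nomenclature the plain name miR-223 stands for the arm on the 3′ side of the hairpin. RefSeq places the hairpin of 110 bases at chrX:96242817-96242926, plus strand (GRCm38.p6), inside the span of the long non-coding RNA gene F630028O10Rik, with Vsig4 as the next protein-coding gene downstream. The hairpin is shown with the measured arm in capitals, and the mature miRNA with its seed in capitals. The seed is bases 2 to 8 of the mature RNA, which pair with the target.
Mir223 hairpin: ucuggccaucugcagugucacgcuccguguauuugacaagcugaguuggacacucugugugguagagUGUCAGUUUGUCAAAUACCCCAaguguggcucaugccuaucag
miR-223-3p: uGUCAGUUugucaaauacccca
The arm fills positions 68 to 89 of the hairpin, or chrX:96242884-96242905. Of 1679 mature mouse miRNAs in the RefSeq table, 1 carries this seed, which is miR-223-3p itself, so miR-223 has no seed family there. The 5′ arm, miR-223-5p, was not analysed here.

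Per the files, both probes end at base 93438244 of the X chromosome in the older build mm9. One covers 21 bases (chrX:93438224-93438244) and the other 20 bases (chrX:93438225-93438244). Each was printed on 10 spots, which gave 20 spots per array and 320 in all. None of the 320 was saturated, and the extraction software called 317 of them well above background. The 3 that were not all lay on IgE-crosslinked BMMC replicate 3. The spots of a probe varied by 2.70% to 22.6% (coefficient of variation), with a median over probes and arrays of 7.31%, and the highest value was that of the 20-base probe on the same array. The number of arrays, 4 per group, limits the precision.

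As deposited and with no scaling between arrays, the 21-base probe gave mean intensities of 222, 178, 231 and 173 in MMC (replicates 1 to 4). In IgE-crosslinked BMMC they were 194, 309.7, 176 and 194. In BMMC they were 732, 657, 922 and 615, and in progenitors 3273, 3919, 2562 and 2836. The progenitor arrays were thus the brightest for miR-223 and BMMC came next, while MMC and IgE-crosslinked BMMC overlapped. Local background around these spots was 33.5 to 37.25 intensity units. The 20-base probe was dimmer than the 21-base probe on all 16 arrays, by 0.27 ± 0.029 log2 in MMC, 0.30 ± 0.047 in IgE-crosslinked BMMC, 0.27 ± 0.027 in BMMC and 0.22 ± 0.0083 in progenitors (SD, n = 4 each). The 21-base probe, as the brighter one, stood for miR-223 in what follows.

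**Figure D1:**
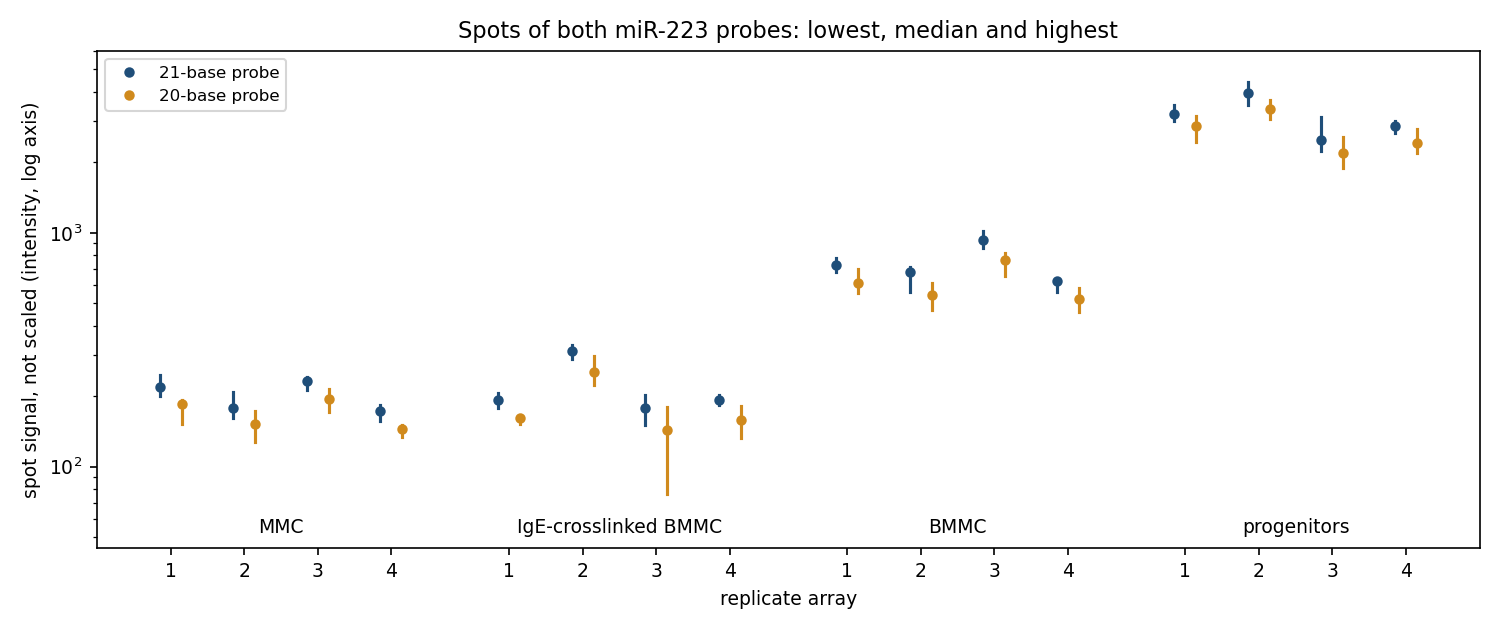
Signals of the spots of both miR-223 probes on each of the 16 arrays, not scaled between arrays (intensity, log axis). Points are the median of the spots used and lines run between the lowest and the highest spot. Progenitor arrays reach 2562 to 3919 as means of the 21-base probe, and both probes place the groups alike.

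The arrays differ in overall brightness, which bears on every comparison. The 75th percentile of the 205 probes well above background on all arrays averaged 779.9 ± 62.1 intensity units in MMC, 385 ± 50.2 in IgE-crosslinked BMMC, 1578 ± 199 in BMMC and 393 ± 52.6 in progenitors (SD, n = 4 each). The bright corner controls, spots that do not depend on the sample, read 575 to 995 in MMC, 216 to 544 in IgE-crosslinked BMMC, 1081 to 1582 in BMMC and 1135 to 1650 in progenitors. Each array was divided by a factor set from that percentile, so a scaled difference is relative to these probes. Whether the groups differed in total miRNA was not measured. Progenitor replicate 4 stood apart from all other arrays on the third principal component of the 217 miRNAs fitted (score 8.79, against -3.49 to 1.1 for the other 15 arrays). The log2 differences of miR-223 from progenitors are given with and without it, while some other values that rest on it are given only with it.

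After scaling, miR-223 read 7.40, 7.35, 7.64 and 7.17 log2 in MMC, a mean of 7.39 ± 0.20 (SD, n = 4). IgE-crosslinked BMMC read 8.24, 8.97, 8.53 and 8.28 log2, a mean of 8.50 ± 0.33. BMMC read 8.17, 7.93, 8.57 and 8.27 log2, a mean of 8.23 ± 0.26. Progenitors read 12.26, 12.83, 12.25 and 12.04 log2, a mean of 12.35 ± 0.34. The 4 progenitor arrays lay above all 12 others, and the 4 MMC arrays lay below all 12 others. IgE-crosslinked BMMC and BMMC overlapped. The order of the means was therefore progenitors, IgE-crosslinked BMMC, BMMC and MMC, and of the neighbours in that order only IgE-crosslinked BMMC and BMMC did not differ beyond their spread (adjusted p = 0.410, limma).

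**Figure D2:**
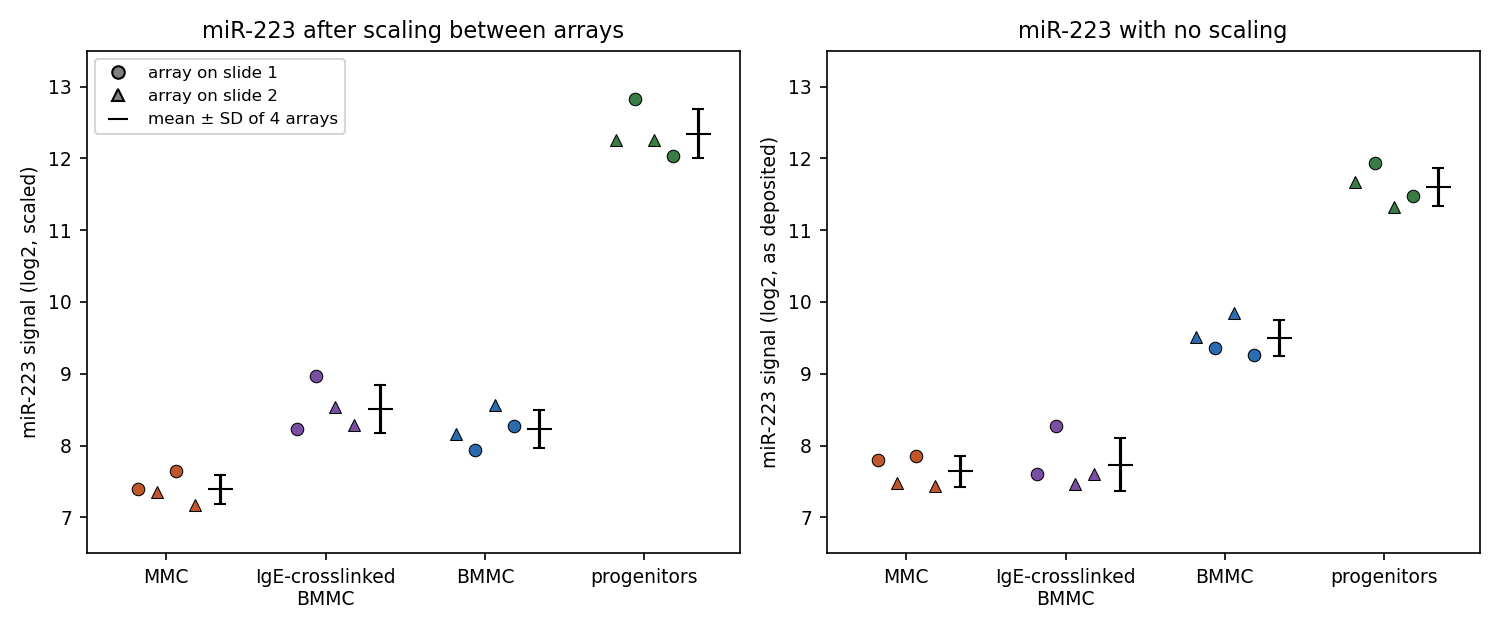
Level of miR-223 on each array, after scaling (left) and as deposited (right), both in log2 intensity of the 21-base probe. Circles and triangles are arrays on slides 1 and 2, and the bar at the right of each group is the mean ± SD of its 4 arrays. Progenitors lie at 12.35 ± 0.34 and MMC at 7.39 ± 0.20 after scaling, and without scaling the MMC and IgE-crosslinked BMMC arrays overlap.

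The spread of miR-223 between arrays of a group was somewhat wide. Its pooled SD over the 4 groups was 0.289 log2, against a median of 0.206 over the 217 miRNAs fitted, of which 55 had a larger one. The range of its group means, 4.96 log2, was the largest of the 217, where the median was 0.985. With its pooled SD of 0.289 log2, differences of the size seen between IgE-crosslinked BMMC and BMMC lay within the spread between arrays, while those from progenitors were many times the spread.

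A rank within an array needs no scaling between arrays. It orders the signals of different probes, so it describes brightness and not numbers of molecules. Among the 577 miRNAs miR-223 ranked 64, 63, 57 and 67 in MMC, 47, 34, 38 and 47 in IgE-crosslinked BMMC, 44, 49, 40 and 48 in BMMC, and 5, 3, 4 and 5 in progenitors, where 1 is the brightest. It was thus among the 5 brightest miRNAs on every progenitor array and ranked 34 or further down on every other array. Of the deposited total signal per miRNA, summed over all miRNAs on an array, it made up 0.205%, 0.206%, 0.255% and 0.178% in MMC. The shares were 0.376%, 0.591%, 0.485% and 0.371% in IgE-crosslinked BMMC, and 0.466%, 0.390%, 0.585% and 0.450% in BMMC. In progenitors they were 5.55%, 7.24%, 5.51% and 4.57%, so that the ranges of progenitors and of the other groups lay far apart.

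**Figure D3:**
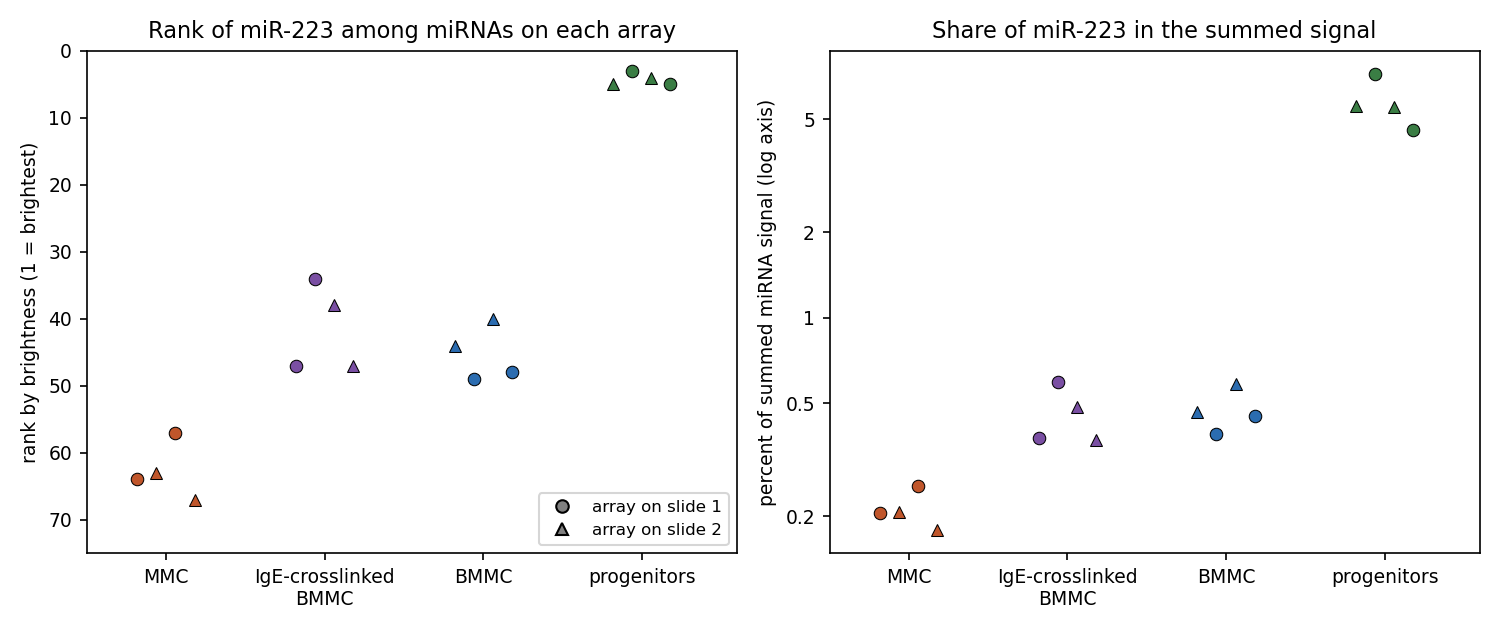
Rank of miR-223 among 577 miRNAs by brightness on each array (left, 1 at the top) and its percent of the summed miRNA signal (right, log axis), neither of which uses scaling between arrays. Points are arrays, circles on slide 1 and triangles on slide 2. Progenitor arrays hold ranks 3 to 5 and MMC arrays ranks 57 to 67.

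BMMC were set against progenitors to see how miR-223 changes as c-kit-positive progenitors become cultured mast cells. It fell 17.3-fold in BMMC, a log2 difference of -4.11 (SE 0.20, 95% interval -4.54 to -3.68). The size depends on the scaling: 6 other scalings all gave smaller falls, at -3.86 to -2.10 log2, with -2.10 for no scaling. The interval does not cover that dependence. Every BMMC array lay below every progenitor array. The adjusted p was 5.8e-10 in limma with Benjamini-Hochberg adjustment over the 217 miRNAs tested. Of these, 66.4% were called in either direction at an adjusted p under 0.05, 45.2% lower and 21.2% higher, and 56.7% had groups that did not overlap, so a call alone was common in this comparison. Of the calls, 31.9% were higher, a share that ran from 12.5% to 86.0% under 6 other scalings. MiR-223 had the most negative difference of the 217, whose median was -0.30 log2. Within slide 1 the difference was -4.33 log2 and within slide 2 it was -3.89, from 2 arrays of each group on each slide. Without progenitor replicate 4 it was -4.21 log2 (adjusted p = 2.1e-09, limma).

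The measures that need no scaling gave the same direction. The mean rank of miR-223 was 45.25 ± 4.11 in BMMC and 4.25 ± 0.957 in progenitors (SD, n = 4 each), a difference of 41 places. An exact two-sided permutation test gave p = 0.0286, the smallest that the 70 arrangements of 4 against 4 arrays allow, and 0.0343 after adjustment over 6 comparisons. Its log2 ratio to miR-142-3p, a miRNA made throughout the blood lineages, was -4.44 ± 0.19 in BMMC and -1.41 ± 0.37 in progenitors, a difference of -3.03 (adjusted p = 0.0343, exact permutation test). Against miR-16, which most cell types make, the difference was -3.92 log2 at the same adjusted p in the exact permutation test. Without progenitor replicate 4 the rank differed by 41.25 places and the log2 ratio to miR-142-3p by -3.15. A ratio within an array shows unequal change only. RefSeq gives miR-142a-3p as follows, again with the seed in capitals, and this seed differs from that of miR-223.
miR-142a-3p: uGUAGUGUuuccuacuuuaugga

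A bulk sample cannot tell fewer cells of a type with much miR-223 from less miR-223 per cell. MiRNAs that mark other cell types were therefore read beside it. Of 3 erythroid miRNAs, miR-451 was well above background on 0 of 4 BMMC arrays and on 4 of 4 progenitor arrays, while miR-144 was above it on none of the 16 arrays. MiR-486, the third, was above it on 4 BMMC arrays and on no progenitor array. Its level lay near the floor of 3.56 log2, to which all dimmer signals were raised, at 3.57 ± 0.027 log2 in BMMC and 3.96 ± 0.60 in progenitors (SD, n = 4 each), and its difference of -0.39 log2 did not pass the test (adjusted p = 0.134, limma) and was positive under 3 of 6 other scalings. The summed erythroid signal was 35.3 to 35.7 scaled units in BMMC and 133 to 254 in progenitors. Of the 3 members, 2 lay at the floor on every BMMC array, so the floor largely fixed the BMMC sum. Of 5 lymphoid miRNAs, 3 fell in BMMC and none rose, where 45.2% of all tested were called lower. They were miR-181b (-1.79 log2), miR-181d (-2.25) and miR-181c (-0.47, above 0 under 5 of 6 other scalings), and without scaling miR-181b also lay above 0. The summed lymphoid signal was 180 to 219 in BMMC and 340.0 to 455 in progenitors. Of 9 miRNAs of stem and progenitor cells, 5 could be tested and 4 fell, with miR-130a at -3.51 log2. MiR-10a (-0.99) lay above 0 under 2 of 6 other scalings and was called lower under 1. MiR-126-3p and miR-196b, like miR-451, lay at the floor on every BMMC array and were tested only through their progenitor signal. They could thus only be called lower, and the direction of these calls carries no information. The summed stem and progenitor signal was 124 to 135 in BMMC and 371 to 585 in progenitors. Here 6 of the 9 members lay at the floor on every BMMC array. The stromal miRNAs miR-143, miR-145 and miR-214 were above background on none of the 16 arrays. MiR-152, the other stromal miRNA with a match, was above background on 4 BMMC arrays and on no progenitor array. Without progenitor replicate 4, 1 erythroid, 3 lymphoid and 4 stem and progenitor miRNAs were still called lower, and the progenitor sums ran from 133 to 254, from 340.0 to 394 and from 371 to 585. Of the members not at the floor in BMMC, miR-181b, miR-181d and miR-130a were thus lower there too. In this comparison 45.2% of all miRNAs tested were called lower. The part of these lists in the fall of miR-223 was not tested.

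MMC against progenitors and IgE-crosslinked BMMC against progenitors share the progenitor arrays with the comparison above, so they are not separate evidence. In MMC miR-223 fell 31.1-fold, a log2 difference of -4.96 (SE 0.20, adjusted p = 1.5e-10, limma), where 73% of 189 miRNAs were called, 43.4% lower and 29.6% higher, and 67.7% did not overlap. In IgE-crosslinked BMMC it fell 14.3-fold, a log2 difference of -3.84 (SE 0.20, adjusted p = 7.5e-10, limma), where 79.1% of 177 miRNAs were called, 50.8% lower and 28.2% higher, and 68.4% did not overlap. Under 6 other scalings the share of calls that were higher ran from 19.9% to 73.7% for MMC (40.6% here) and from 29.4% to 75.9% for IgE-crosslinked BMMC (35.7% here). Under those 6 scalings miR-223 differed by -4.69 to -3.78 log2 in MMC and by -3.87 to -2.52 in IgE-crosslinked BMMC. After the main scaling it again had the most negative difference of the miRNAs tested in both. The slides gave -4.91 and -5.00 log2 for MMC, and -3.83 and -3.85 for IgE-crosslinked BMMC (slides 1 and 2). Without progenitor replicate 4 the difference was -5.06 log2 and 58.75 places in MMC, and -3.94 log2 and 37.5 places in IgE-crosslinked BMMC. The summed lymphoid signal was 194 to 205 scaled units in MMC and 178 to 215 in IgE-crosslinked BMMC. The stem and progenitor sum was 125 to 132 in MMC and 121 to 131 in IgE-crosslinked BMMC. All lay below the progenitor values above. Of the 9 stem and progenitor members, 6 lay at the floor on every MMC array. On every IgE-crosslinked BMMC array 7 did, so the floor largely fixed these stem and progenitor sums. The part of these lists was not tested here either. By rank the differences were 58.5 places in MMC and 37.25 in IgE-crosslinked BMMC, and the exact permutation test gave an adjusted p of 0.0343 for each.

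MMC were set against BMMC to follow differentiation with IL-9 and TGF-beta. MiR-223 fell further, 1.80-fold in MMC, a log2 difference of -0.85 (SE 0.20, 95% interval -1.27 to -0.42, adjusted p = 0.0068 in limma). The MMC arrays lay between 7.17 and 7.64 log2 and the BMMC arrays between 7.93 and 8.57, so the groups did not overlap. In this comparison 20.8% of 207 miRNAs were called, 3.86% lower (8 miRNAs) and 16.9% higher, while 34.3% did not overlap. The share of calls that were higher, 81.4%, ran from 0% without scaling to 96.7% with normexp background correction. MiR-223 had the third most negative difference of the 207, whose median was 0.01 log2. The difference was -0.58 log2 within slide 1 and -1.11 within slide 2. In the authors' deposited log2 value table it was -0.98 with an adjusted p of 0.083 in limma, which no longer passed the threshold.

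Its rank was 62.75 ± 4.19 in MMC and 45.25 ± 4.11 in BMMC (SD, n = 4 each), 17.5 places further down (adjusted p = 0.0343, exact permutation test). Its log2 ratio to miR-142-3p was -5.80 ± 0.24 in MMC and -4.44 ± 0.19 in BMMC. That is a difference of -1.37, while the difference from miR-16 was -0.64, both at an adjusted p of 0.0343 in exact permutation tests. The lymphoid and stem and progenitor signals, which parted BMMC from progenitors, overlapped here. The lymphoid sum was 194 to 205 in MMC and 180 to 219 in BMMC, and the stem and progenitor sum was 125 to 132 in MMC and 124 to 135 in BMMC. Of the 9 stem and progenitor members, 6 lay at the floor on every array of both groups, so much of that overlap was fixed by the floor. The erythroid sum was 38.2 to 44.9 in MMC and 35.3 to 35.7 in BMMC, with 2 of its 3 members at the floor on every array of both groups. The part of these lists in the fall of miR-223 was not tested.

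IgE-crosslinked BMMC were set against BMMC to see whether activation moved miR-223. No difference was detected: it read 8.50 ± 0.33 log2 in IgE-crosslinked BMMC and 8.23 ± 0.26 in BMMC (SD, n = 4 each), a difference of 0.27 (SE 0.20, 95% interval -0.16 to 0.70, adjusted p = 0.410 in limma). The arrays overlapped, where 25.6% of 207 miRNAs were called, 18.4% higher and 7.25% lower, and 28.5% did not overlap. The share of calls that were higher, 71.7%, ran from 0.526% without scaling to 97.6% with normexp. The interval still allows a rise of 0.70 log2. Within slide 1 the difference was 0.50 log2 and within slide 2 it was 0.04. Without IgE-crosslinked BMMC replicate 2, the highest array of its group, it was 0.12 log2 (adjusted p = 0.825, limma).

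The sign of this difference depends on the measure. With no scaling at all it was -1.76 log2 (adjusted p = 2.7e-07, limma), but the median of the 207 miRNAs then stood at -1.80, so that miR-223 differed from it by 0.03. With normexp background correction it was 0.36 log2 (adjusted p = 0.045, limma), where the median stood at 0.92. The rank differed by -3.75 places (adjusted p = 0.371, exact permutation test). The ratio to miR-142-3p differed by -0.33 log2 (adjusted p = 0.20) and that to miR-16 by 0.39 (adjusted p = 0.0857), both in exact permutation tests. The share of summed signal differed by -0.07 log2 (adjusted p = 0.83, exact permutation test).

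MMC against IgE-crosslinked BMMC set the mucosal cells against the activated ones, and both groups also serve in the comparisons above. MiR-223 was 2.17-fold lower in MMC, a log2 difference of -1.12 (SE 0.20, 95% interval -1.54 to -0.69, adjusted p = 0.00055 in limma). The groups did not overlap. Here 31% of 174 miRNAs were called, 12.6% lower and 18.4% higher, and 43.7% did not overlap, and miR-223 had the fourth most negative difference. The share of calls that were higher, 59.3%, ran from 11.4% with normexp to 99.3% without scaling. The slides gave -1.08 and -1.15 log2 (slides 1 and 2). With no scaling the difference was -0.09 log2 (adjusted p = 0.652, limma), beside a median of 0.91 over the 174 miRNAs. The mean rank was 62.75 ± 4.19 in MMC and 41.5 ± 6.56 in IgE-crosslinked BMMC (SD, n = 4 each), 21.25 places apart (adjusted p = 0.0343, exact permutation test).

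**Figure D4:**
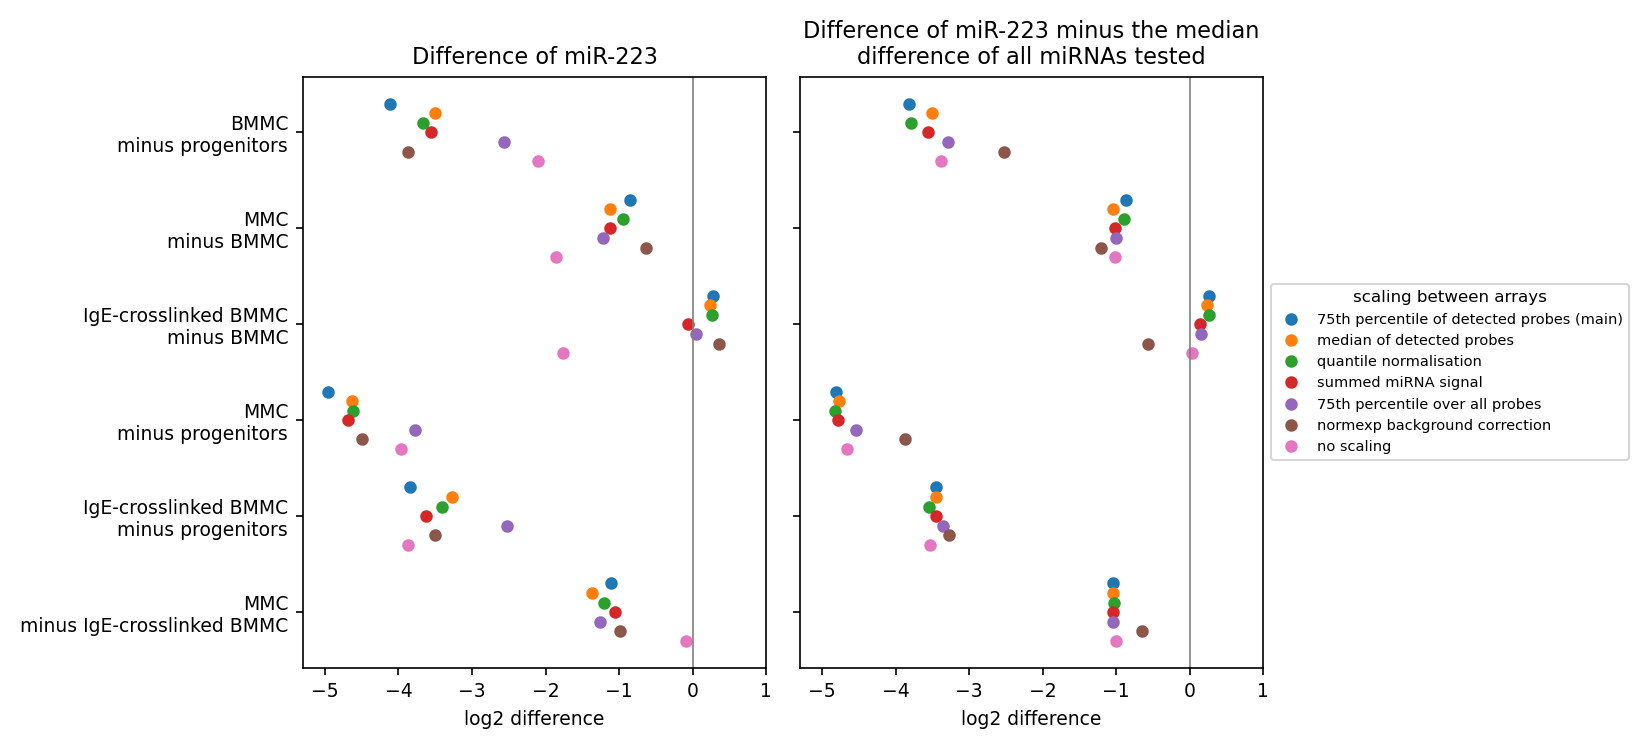
Log2 difference of miR-223 in the 6 comparisons under 7 ways of treating the arrays (left), and the same minus the median difference of all miRNAs tested (right). Each point is 1 fit over 16 arrays. The 3 differences from progenitors lie at -2.10 or lower under every setting shown, while that of IgE-crosslinked BMMC from BMMC lies on either side of 0.

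Set against the median of the miRNAs tested, the differences of miR-223 moved less with the scaling. For MMC against BMMC they were -1.21 to -0.86 log2 over the 7 settings plotted, and for MMC against IgE-crosslinked BMMC they were -1.05 to -0.65. For BMMC against progenitors they were -3.81 to -2.52. The most negative place that miR-223 held against progenitors became the second most negative for BMMC under 2 of the 6 other settings, for IgE-crosslinked BMMC under 3, and for MMC under none. In the authors' deposited value table miR-223 was the sixth most negative for BMMC, the fifth for MMC and the seventh for IgE-crosslinked BMMC, all against progenitors.

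Of 9 other miRNAs listed for granulocytes and monocytes, none had the calls of miR-223 in all 6 comparisons. MiR-146a parted from miR-223 only in MMC against BMMC (-0.45 log2). There miR-146a lay at the floor on all MMC arrays but replicate 3, and on its lowest BMMC array. The size of that difference is therefore not known. All 10 list members passed the test in BMMC against progenitors, 5 higher and 5 lower, where 66.4% of all tested were called. The numbers were the same without progenitor replicate 4. The list had a median of -0.25 log2 beside -0.30 for all miRNAs tested. The miRNAs that fell with miR-223 were miR-146a (-3.10 log2), a brake on inflammatory signalling, miR-155 (-1.56), which promotes it, miR-142-3p (-1.08) and miR-142-5p (-0.74). Under other scalings miR-146a kept its sign, miR-155 turned positive without scaling, and both arms of miR-142 turned positive without scaling and with the percentile of all probes. Those that rose, under each of the 7 settings, were miR-29a (1.02 log2), miR-24 (0.61), miR-23a (0.60), miR-27a (0.47) and miR-21 (0.24). MiR-23a, miR-27a and miR-24 come from 1 primary transcript.

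Against progenitors the list split in the same numbers in the other groups, with 5 higher and 5 lower in MMC (median 0.07 log2, where 73% of all tested were called) and 5 higher and 5 lower in IgE-crosslinked BMMC (median 0.23, where 79.1% were called). Without miR-223 the summed list signal was 32673 to 34286 scaled units in MMC, 29865 to 36543 in IgE-crosslinked BMMC, 20353 to 22977 in BMMC and 24384 to 27083 in progenitors. After this scaling the sum of the other members was lowest in BMMC, whereas miR-223 was lowest in MMC. The sum weighs the brightest members most and does not describe each member. By group mean, miR-142-3p, miR-142-5p and miR-155 were lowest in BMMC. MiR-29a, miR-24, miR-23a, miR-27a and miR-21 were lowest in progenitors. MiR-146a, near the floor there, was lowest in MMC like miR-223.

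In MMC against BMMC, 3 members rose and miR-223 alone fell, where 20.8% of all tested were called, and the list median was 0.27 log2 beside 0.01 for all tested. The 3 were miR-21 (1.11 log2), miR-142-3p (0.52) and miR-24 (0.32). MiR-21 stayed above 0 under the 6 other scalings, at 0.05 to 1.06, while miR-142-3p turned negative without scaling and under quantile normalisation, and miR-24 without scaling and with the percentile of all probes. In IgE-crosslinked BMMC against BMMC, 5 members rose and none fell, where 25.6% of all tested were called and 18.4% higher, with a median of 0.39 beside 0.01. They were miR-21 (1.01 log2), miR-142-3p (0.60), miR-24 (0.49), miR-27a (0.48) and miR-23a (0.39), each of which turned negative without scaling, miR-142-3p and miR-23a also under quantile normalisation. MiR-23a was called higher under none of the 6 other scalings. In MMC against IgE-crosslinked BMMC, 4 members were lower and none higher, where 31% of all tested were called and 12.6% lower, with a median of -0.17 beside -0.07. They were miR-223, miR-146a (-0.85), miR-27a (-0.26) and miR-24 (-0.17), and the last 2 turned positive without scaling. MiR-146a lay at the floor on 3 of 4 MMC arrays, so its difference is only a bound, and its call (adjusted p = 0.049, limma) held under 3 of 6 other scalings, which gave -1.12 to -0.01 log2.

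The miRNAs most like miR-223 over the 4 groups were found by the root mean square difference of centred group means. It was compared with each of 108 other miRNAs detected above background on every array. The median distance was 1.82 log2. The 5 nearest were miR-18a (0.519), miR-17 (0.519), miR-146a (0.533), miR-106a (0.541) and miR-19a (0.602). MiR-18a, miR-17 and miR-19a belong to the miR-17-92 cluster and miR-106a to a related cluster on the X chromosome, while miR-146a has a gene of its own. Their RefSeq sequences are given with the seed in capitals, to set them beside miR-223.
miR-18a-5p: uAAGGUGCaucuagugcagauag
miR-17-5p: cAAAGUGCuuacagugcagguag
miR-106a-5p: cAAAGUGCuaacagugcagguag
miR-19a-3p: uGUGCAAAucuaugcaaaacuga
miR-146a-5p: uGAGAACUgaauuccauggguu
None has the seed of miR-223. MiR-17 and miR-106a share a seed and differ at 1 of 23 positions, so their probes may share signal and the 2 are not independent neighbours.

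The 5 were chosen by their likeness to miR-223 over all 4 groups. That choice makes a low level in BMMC against progenitors likely, and also favours similar differences in the other comparisons. These values are therefore a description. All 5 were lower in BMMC than in progenitors, with log2 differences of -3.33 (miR-18a), -3.25 (miR-17), -3.17 (miR-106a), -3.10 (miR-146a) and -3.09 (miR-19a). Without progenitor replicate 4 these were -3.38 (miR-18a), -3.32 (miR-17), -3.25 (miR-106a), -3.20 (miR-146a) and -3.14 (miR-19a). In MMC against BMMC all 5 differences had the sign of that of miR-223 and none was called. They were -0.45 log2 for miR-146a (adjusted p = 0.336, limma), -0.27 for miR-106a (0.351), -0.25 for miR-17 (0.392), -0.22 for miR-19a (0.434) and -0.18 for miR-18a (0.473). Whether miR-223 differed from each of the 5 in this comparison was not tested. MiR-146a lay at the floor on all MMC arrays but replicate 3, so the size of its difference is not known. In IgE-crosslinked BMMC against BMMC none of the 5 was called, as with miR-223.

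**Figure D5:**
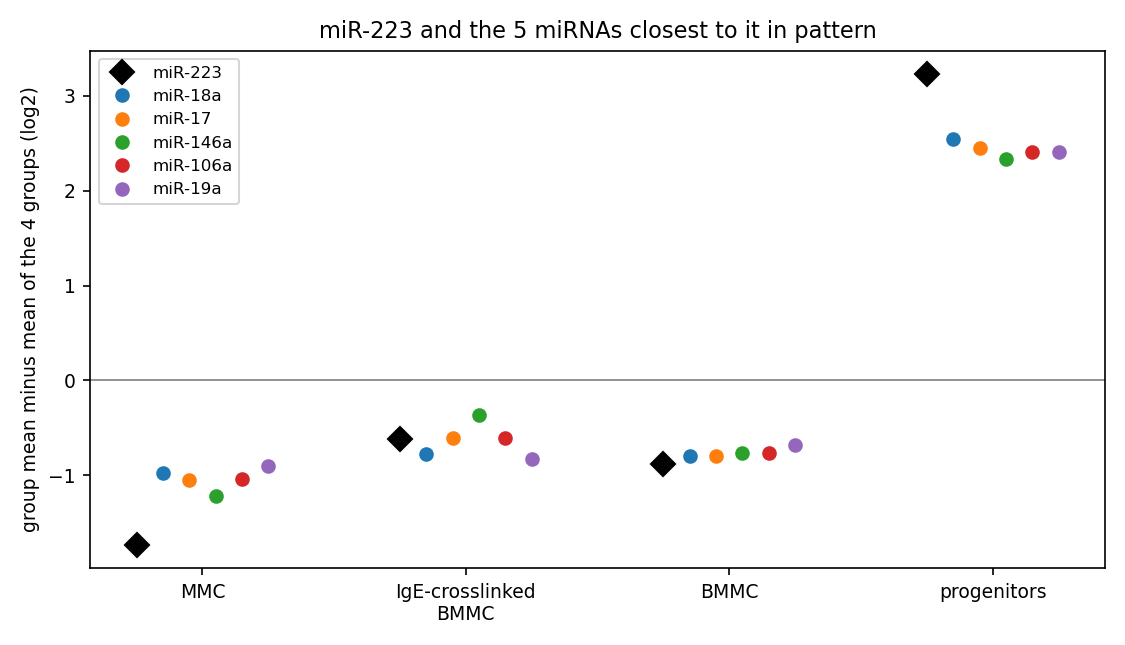
Group means of miR-223 (diamonds) and of the 5 miRNAs closest to it (circles), each minus its own mean over the 4 groups, in log2. MiR-223 stands at -1.73 in MMC, -0.61 in IgE-crosslinked BMMC, -0.88 in BMMC and 3.23 in progenitors, and it is the lowest of the 6 in MMC and the highest in progenitors.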

How the data were processed

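Per the file headers, the authors read the 1-colour (Cy3) arrays using Agilent Feature Extraction 9.5.1.1. The deposited signals of spots are background-subtracted intensity values on a linear scale, not scaled between arrays. The authors also deposited a value table in log2 units, used as an alternative. Per the labels, each array took 100 ng of RNA whose integrity number exceeded 8. Spots of a probe were averaged without outlier spots, and each array was divided by the 75th percentile of 205 probes. Signals under 11.8 were set to that floor before taking log2, and each miRNA was represented by its brightest probe. The fit took the 217 miRNAs that at least 3 arrays of 1 group showed well above background, in limma 3.58.1 (R 4.3.3), with 1 coefficient per group over 16 arrays. P-values were Benjamini-Hochberg adjusted within a comparison over all miRNAs tested and called under 0.05. The fit was tested on simulated data. Ranks, ratios and shares were compared by exact permutation tests over arrays. Mature sequences were read from RefSeq, where all 7 miRNAs shown matched by the arm that their array name stands for. The miRNAs named besides miR-223 were the denominators, the 5 nearest patterns, the granulocyte and monocyte list, and called members of 4 other lists. The member, the lists and the tests were chosen with earlier results of these data known. Of 5 stromal miRNAs 4 were matched by name.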

Additional observations from a re-analysis of the deposited data

Results flagged for a closer look

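Of 88 sets of 4 arrays examined, 9 held an array far from the other 3 of its group, where chance gives about 1 in 20 for independent sets. These sets share arrays and are not independent, so the number listed cannot be judged against that rate. MiR-223 itself had 2 of them, both on IgE-crosslinked BMMC replicate 2. Its unscaled signal there was 8.275 log2, while the other 3 arrays lay between 7.46 and 7.60. The deposited total signal, which sums over both probes, was 383 intensity units there, while the others lay between 231 and 249. That array had the lowest bright corner reading of its group, 216. After scaling it read 8.97 log2 and was not far enough from the other 3 to be listed.

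Among the miRNAs compared with miR-223, IgE-crosslinked BMMC replicate 3 stood apart for 4. MiR-17 read 5.755 log2 there, against 5.92 to 5.95 on the other 3 arrays. MiR-23a read 11.68 log2, against 12.29 to 12.37. MiR-155 read 5.917 log2, against 6.23 to 6.29. MiR-29a read 9.94 log2, against 9.68 to 9.72. In MMC, miR-146a read 3.898 log2 on replicate 3 and lay at the floor of 3.56 on the other 3. With 3 arrays at the floor, any array above it would be listed. In BMMC, miR-155 read 6.145 log2 on replicate 1, against 5.74 to 5.80. In progenitors, miR-146a read 7.917 log2 on replicate 2, against 6.88 to 7.05.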

How the results depend on the processing

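The falls of miR-223 against progenitors kept their direction under all 38 alternatives tried for each, and their call wherever a test could be made, at -4.33 to -2.10 log2 in BMMC, -5.06 to -3.78 in MMC and -3.99 to -2.52 in IgE-crosslinked BMMC. In MMC against BMMC the authors' value table gave -0.98 (adjusted p = 0.083, limma), and the other alternatives with a test kept the call. In IgE-crosslinked BMMC against BMMC, no scaling gave -1.76 and normexp 0.36, both called. In MMC against IgE-crosslinked BMMC, no scaling gave -0.093 (adjusted p = 0.652, limma). The causes were not tested. Rank differences kept their direction under all 11 alternatives, and leaving out 1 array changed no call of miR-223.

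Counts of miRNAs called moved more. In MMC against BMMC 43 became 146 without scaling, 21 with the percentile of all probes, 78 with the median, 91 with the summed signal, 153 with normexp, 10 in the authors' table and 65 with only the 2 groups. In IgE-crosslinked BMMC against BMMC 53 became 190 without scaling, 83 with the summed signal, 168 with normexp, 26 in the authors' table, 30 with no filter, and 33 to 72 with 1 array left out, with 33 without BMMC replicate 2 and 35 without IgE-crosslinked BMMC replicate 2. In MMC against IgE-crosslinked BMMC 54 became 153 without scaling, 116 with the median, 132 with normexp, 33 in the authors' table and 28 with only miRNAs above background on all arrays. That last filter leaves fewer to test and gave 87 for 144 in BMMC, 82 for 138 in MMC and 85 for 140 in IgE-crosslinked BMMC against progenitors.

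Of the granulocyte and monocyte list, calls in MMC against BMMC were 9 without scaling, 7 with normexp and 1 with the percentile of all probes (4 as reported). Over all 207 miRNAs tested, 146 were called without scaling, all of them lower. With normexp 153 were called, 148 of them higher, and 21 with the percentile of all probes. In IgE-crosslinked BMMC against BMMC the list calls ran from 1 to 10 over 6 alternatives, with 10 without scaling and 3 under quantile normalisation (5 as reported). Without scaling 190 of all 207 miRNAs were called there, 189 of them lower, whereas the 5 list calls reported were higher. Under quantile normalisation 51 of the 207 were called, 26 of them higher. In MMC against IgE-crosslinked BMMC the list calls were 8 without scaling, 8 with the median, 1 with the percentile of all probes and 1 with the summed signal (4 as reported, all lower). Over all 174 miRNAs, 153 were called without scaling, 152 of them higher. With the median 116 were called, 87 of them lower. The percentile of all probes gave 43 calls over all miRNAs and the summed signal 50. In BMMC against progenitors 2 erythroid miRNAs were called without scaling and with normexp (1 as reported), and 5 lymphoid miRNAs with normexp (3 as reported). Over all 217 miRNAs, 179 were called there without scaling, 154 of them higher. With normexp 200 were called, 175 of them lower.

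In their deviations from group means, arrays with the same replicate number correlated above 0.1 in 8 of 24 pairs (median 0.043, from -0.408 to 0.469). Arrays with different numbers did so in 17 of 72 pairs (median -0.023, from -0.502 to 0.462). Whether these differ was not tested. With the replicate number as a block, miR-223 differed by -4.11 log2 in BMMC (adjusted p = 2.6e-08, limma), -4.96 in MMC (8.1e-09) and -3.84 in IgE-crosslinked BMMC (2e-08) against progenitors, by -0.85 in MMC (0.01) and 0.27 in IgE-crosslinked BMMC (0.37) against BMMC, and by -1.12 in MMC against IgE-crosslinked BMMC (0.0011), which changed no call. The block gave 138, 139 and 141 calls against progenitors, 41 and 46 against BMMC, and 48 for MMC against IgE-crosslinked BMMC.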
